A study of Mus musculus with 4 samples.

Results

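The antioxidant and glutathione genes described here are a list of 37 symbols that covers targets of the transcription factor Nrf2, glutathione transferases, peroxidases, peroxiredoxins and superoxide dismutases. They were read in mouse embryonic fibroblasts, primary connective tissue cells grown out from embryos, that were Pdpn-/- (Pdpn KO) or wild type (WT). Podoplanin, the product of Pdpn, is a transmembrane glycoprotein of fibroblasts and lymphatic endothelium. A member was kept where a probe set of the array has that gene symbol alone in the platform annotation, and the brightest probe set stood for a symbol with several. That left 34 of the 37 members among 19751 genes. Every culture was of the strain given as C57BL6/J, came from embryos between E9.5 and E13.5, grew untreated in serum for 7 to 10 days and was depleted of cells bearing CD31 or CD45, which mark endothelium and blood, per the labels. There were 2 arrays per genotype, called biological replicates. The sources used here do not give the targeted allele, the stage of each embryo or the number of embryos behind a culture.

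The targeted gene and the cell type were checked first. Pdpn had an RMA intensity, the normalised brightness of its probe set, of 179 and 201 in the Pdpn KO arrays, against 4486 and 3106 in the WT arrays. The 4 arrays had median intensities between 283 and 290. Of the fibroblast markers, Vim read 17537 and 17684 in Pdpn KO and 17995 and 18278 in WT, and Col1a1 read 5799 and 8334 in Pdpn KO and 5895 and 8938 in WT. The 10 measured markers of white blood cells summed to 1699 and 1485 in Pdpn KO and 1619 and 1456 in WT. Cd68 alone gave 672 and 394 of this in Pdpn KO and 600 and 377 in WT. The 10 of endothelium summed to 3526 and 2977 in Pdpn KO and 3460 and 3255 in WT. Eng alone gave 1830 and 1235 of this in Pdpn KO and 1461 and 1437 in WT, so each sum leans on 1 gene. Of the endothelial markers, Emcn, a sialoglycoprotein, read 196 and 177 in Pdpn KO and 459 and 351 in WT, while Cdh5, the cadherin that defines endothelium, read 159 and 182 in Pdpn KO and 165 and 163 in WT; the part of other cells in the results below was not tested. RMA values have no zero, so no marker could be called absent. The labels give every sample as female. Xist, the RNA of the inactive X chromosome, read 49 and 1831 in Pdpn KO and 49 and 57 in WT, and the Y-linked gene Eif2s3y read 1673 and 35 in Pdpn KO and 1534 and 1474 in WT. Pdpn KO replicate 2 thus had the pattern of female cells and the other 3 arrays that of male cells, so values without Pdpn KO replicate 2 are also given below.

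Nrf2, encoded by Nfe2l2, is held in the cytoplasm and marked for degradation by Keap1. Electrophiles and oxidants modify cysteines of Keap1, and Nrf2 then enters the nucleus, pairs with a small Maf protein and binds the antioxidant response element of its target genes. Those targets make and recycle glutathione, the main small thiol of the cell, join it to electrophiles through transferases, and reduce peroxides and quinones. In cultured fibroblasts the system is known to protect against the oxidative stress of growth in air.

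The core of that element, TGACNNNGC on either strand, was looked for in the RefSeq promoter windows of assembly GRCm38.p6, which run from 250 bases before to 50 bases after a start site. It was present for 10 of the 29 members that had a window (34.5%), against 14.0% of all 27025 genes with one. Over windows, it was present in 10 of 38 member windows (26.3%), against 12.4% of all 32851. The list was drawn up around Nrf2, so this describes the list. Nqo1, Slc7a11, Osgin1, Fth1 and Sqstm1 were among the members with a window but no match. The stretches that hold the core are printed because Nrf2 is known to reach its targets through elements with such a core. Each is given in the direction of its gene, with the 9 letters of the core in capitals, which read TGACNNNGC or its reverse complement GCNNNGTCA. A match is no proof of binding.
Nfe2l2, chr2:75704885-75704913, minus strand: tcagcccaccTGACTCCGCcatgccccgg
Gclm, chr3:122245413-122245441, plus strand: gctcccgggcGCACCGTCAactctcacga
Txnrd1, chr10:82859104-82859132, plus strand: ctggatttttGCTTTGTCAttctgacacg
Srxn1, chr2:152105542-152105570, plus strand: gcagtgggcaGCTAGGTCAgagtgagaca
Me1, chr9:86695902-86695930, minus strand: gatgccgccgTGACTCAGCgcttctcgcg
Prdx1, chr4:116685456-116685484, plus strand: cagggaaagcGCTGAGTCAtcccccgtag
Gsta3, chr1:21240454-21240482, plus strand: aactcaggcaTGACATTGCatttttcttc
Gstm5, chr3:107895802-107895830, plus strand: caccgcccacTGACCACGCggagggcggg
Mgst1, chr6:138140461-138140489, plus strand: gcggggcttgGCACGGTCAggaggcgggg
Sod1, chr16:90220696-90220724, plus strand: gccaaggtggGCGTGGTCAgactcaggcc

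The core of Me1 and that of Prdx1 have the same letters, TGACTCAGC, which also contain the AP-1 motif TGACTCA. Those of Gstm5 and Sod1 are both TGACCACGC. The core begins 133 bases before the start site in Prdx1 and 134 bases before it in Gclm, and it lies 28 bases after the start site in Srxn1. The median log2 fold change, Pdpn KO over WT, was 0.04 for the 10 members with the core and 0.03 for the 19 with a window but no match. Gsta4, Sod3, Hmox1, Gclc and Gsr, the 5 members without a window, are in neither median. Gsta4 (0.95) and Sod3 (0.76) had the largest fold changes of the list.

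None of the 34 members passed the threshold between the genotypes, and most differed little. In limma with all 4 arrays, 0 members had an adjusted p under 0.05, where 0.0101% of all genes did. The median log2 fold change was 0.04 for the members, with a range from -0.25 to 0.95, and 0.00 for all genes. The member median was 0.11 without WT replicate 1, where that of all genes was 0.00. It was 0.07 with WT replicate 2 left out, and also with Pdpn KO replicate 1 left out, and that of all genes was 0.02 in both cases. Without Pdpn KO replicate 2, when all arrays had the male pattern, it was 0.04, and that of all genes was -0.004. In that fit 21 members and 49.1% of all genes had the higher mean in Pdpn KO. With each array centred on its median, the members were at 0.01 and all genes at -0.03, and with quantile normalisation the members were at 0.02 and all genes at 0.00. At an unadjusted p under 0.05 there were 3 members, Gsta4, Sod3 and Gstm1, against 2.01% of all genes (397). All 3 had the higher mean in Pdpn KO, as did 296 of those 397 genes (1.5% of all genes). With the replicate number as a block, limma put 8 members at an unadjusted p under 0.05, against 8.49% of all genes. The 5 added were Nqo1, Nfe2l2, Gstm5 and Mgst1, with the higher mean in Pdpn KO, and Gsta3, with the lower one. That made 7 of the 8 members higher in Pdpn KO, against 5.15% of all genes, or 1018 of the 1676 at that p. None of the 8 passed after adjustment. The genotypes did not overlap for 13 members, where 24.4% of all genes had no overlap. The Pdpn KO arrays were the higher pair for 10 members (29.4%), against 14.6% of all genes, and the lower pair for 3 members (8.8%), against 9.74% of all genes. The mean was higher in Pdpn KO for 22 of the 34 members (64.7%) and for 51.7% of all genes. With each array centred on its median these became 17 members and 41.0% of all genes, and with quantile normalisation 19 members and 48.2%. Without the dimmer 50% of genes they became 21 of 32 members and 61.9% of the genes kept. The medians there were 0.04 for the members and 0.03 for the genes kept, so the members were close to other bright genes. Gstm1 was not below the unadjusted 0.05 after centring, nor Sod3 after quantile normalisation. With 2 arrays against 2, no exact permutation test of a single gene can go below a two-sided p of 0.333, so the adjusted p rests on the spread that limma shares among genes. The arrays read bulk cultures, in which fewer cells of a type and less RNA per cell cannot be told apart.

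**Figure D1:**
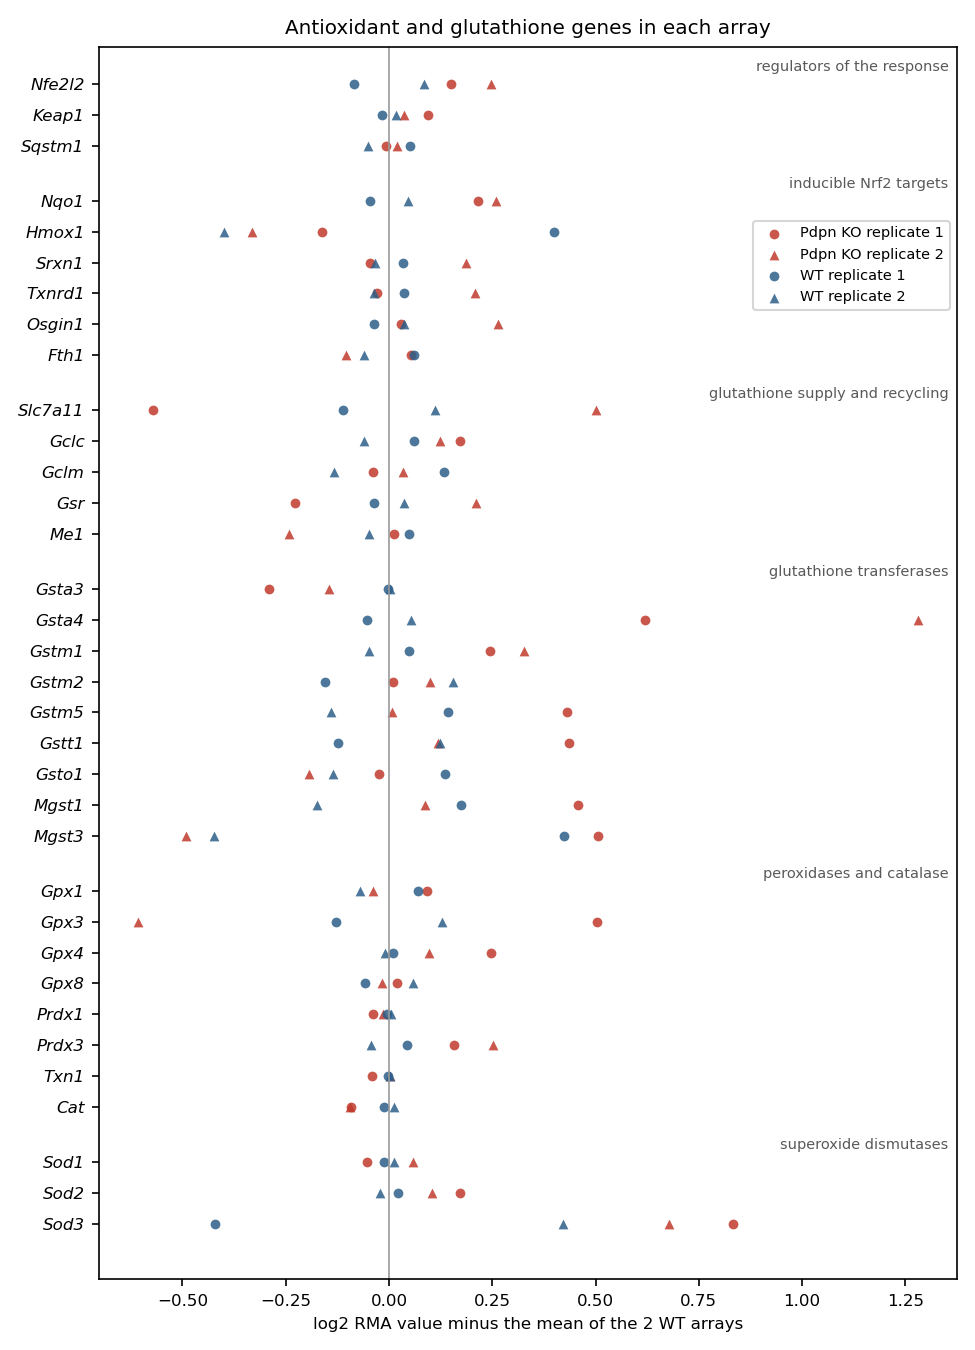
Log2 RMA value of each of the 34 members in each array, minus the mean of the 2 WT arrays (x axis), with members down the page by role. Red marks are Pdpn KO arrays and blue marks WT arrays, circles replicate 1 and triangles replicate 2; Gsta4 and Sod3 have both red marks right of both blue ones, at 0.62 or more.

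None of the 3 genes that control the response passed, and Nfe2l2 had the largest fold change among them. Nfe2l2 read 4506 and 4815 in Pdpn KO, against 3829 and 4302 in WT, a log2 fold change of 0.20 ± 0.12 (SE, n = 2 per genotype). Its genotypes did not overlap, though Pdpn KO replicate 1 and WT replicate 2 were close. Keap1, the adaptor that marks Nrf2 for degradation, read 710 and 681 in Pdpn KO and 657 and 673 in WT, so the 4 values were close and did not overlap. Sqstm1, the p62 autophagy receptor, which can bind Keap1 away from Nrf2, read 7088 and 7217 in Pdpn KO and 7379 and 6874 in WT, with both Pdpn KO values between the WT ones.

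Among the inducible targets, Nqo1 had the highest fold change and Hmox1 the lowest, and neither passed. Nqo1, a quinone reductase widely used as a readout of Nrf2, read 3787 and 3903 in Pdpn KO, against 3162 and 3367 in WT. Both Pdpn KO arrays were above both WT arrays, and the difference on the log2 scale came to 0.24 ± 0.11 (SE, n = 2 per genotype), with a 95% interval from -0.03 to 0.51 (limma unadjusted p = 0.0745, adjusted p = 1.00). Without Pdpn KO replicate 2 it was 0.22. Hmox1, the inducible haem oxygenase, read 4378 and 3893 in Pdpn KO and 6457 and 3716 in WT. The high value of WT replicate 1 stands apart from the other 3 arrays, and the log2 fold change was -0.25 ± 0.25 with all arrays and 0.15 without that array.

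Srxn1, sulfiredoxin, which repairs over-oxidised peroxiredoxins, read 1872 and 2201 in Pdpn KO and 1978 and 1888 in WT. Txnrd1, the cytosolic thioredoxin reductase, read 4016 and 4727 in Pdpn KO and 4200 and 3992 in WT. Osgin1, an oxidative stress-induced growth inhibitor, read 373 and 438 in Pdpn KO and 356 and 374 in WT. In these 3 genes Pdpn KO replicate 2 had the highest value and Pdpn KO replicate 1 lay within or just below the WT range. Fth1, the ferritin heavy chain that stores iron, read 11528 and 10328 in Pdpn KO and 11585 and 10647 in WT, a log2 fold change of -0.03 ± 0.12. Fth1 has many processed pseudogenes, whose transcripts its probes could also read.

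**Figure D2:**
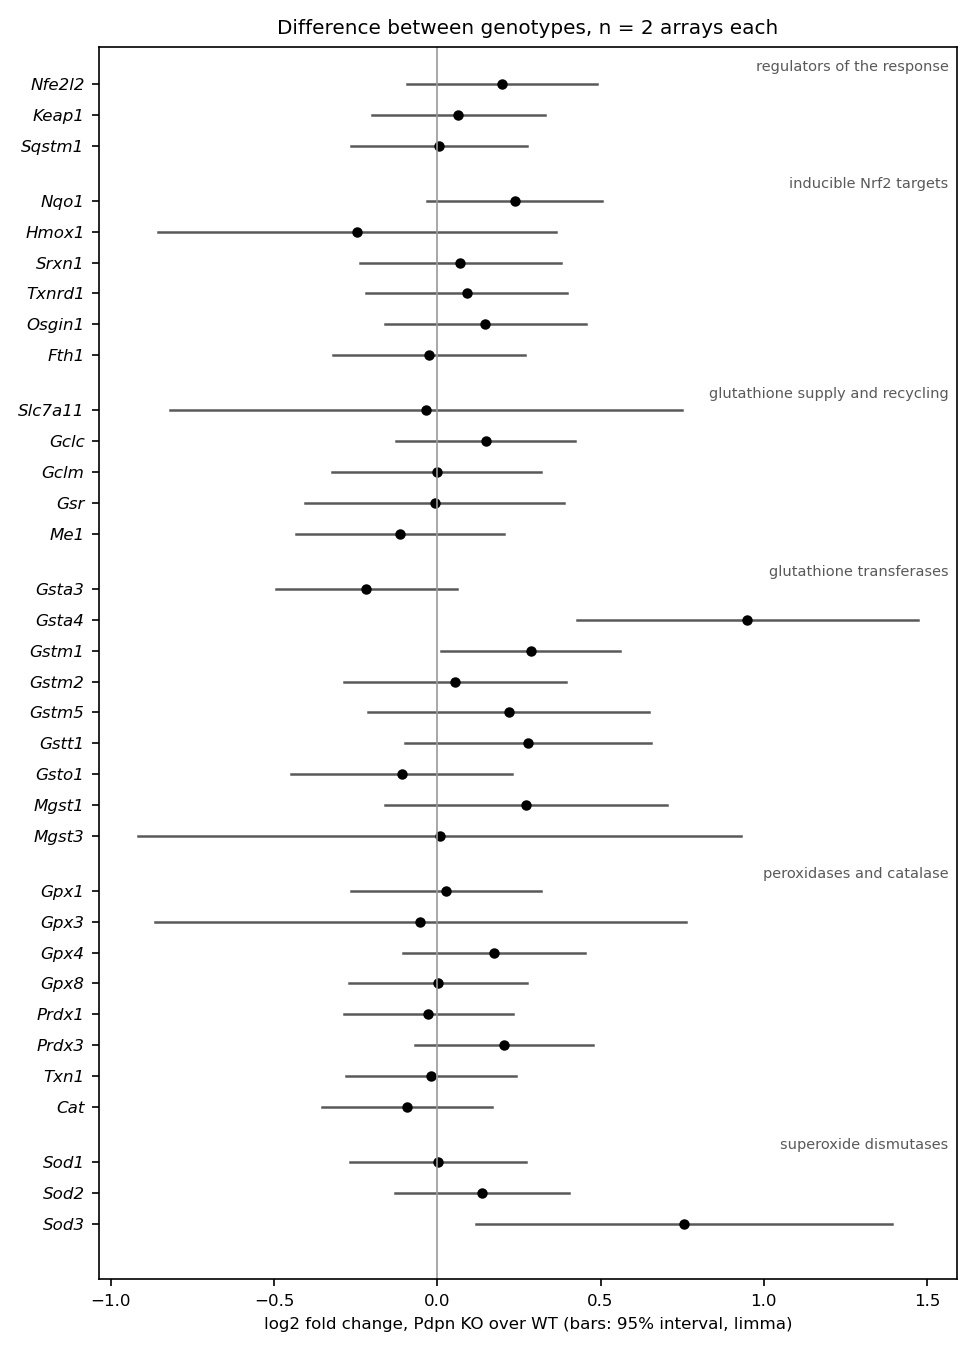
Log2 fold change, Pdpn KO over WT (x axis), of the 34 members with its 95% interval from limma (bars), by role, n = 2 arrays per genotype. The intervals of Gsta4, Sod3 and Gstm1 lie above 0 and those of the remaining members cross it, and none of the 34 passed after adjustment over all genes.

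The Pdpn KO mean was above the WT mean for 1 of the 5 measured genes of glutathione supply and below it for 4, with a median log2 fold change of -0.01. Slc7a11, the cystine importer that feeds glutathione synthesis, read 307 and 645 in Pdpn KO, against 422 and 492 in WT. The Pdpn KO arrays lay on either side of the WT arrays, so the log2 fold change of -0.03 ± 0.33 (SE, n = 2 per genotype) covers a 95% interval from -0.82 to 0.75. It was 0.50 with Pdpn KO replicate 1 left out and -0.57 with the other Pdpn KO array left out. Gsr, which reduces oxidised glutathione, had the same order with a smaller spread, 1373 and 1863 in Pdpn KO and 1568 and 1650.4 in WT.

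Gclc and Gclm are the catalytic and modifier subunits of glutamate-cysteine ligase, the rate-limiting enzyme of glutathione synthesis. Gclc read 2817 and 2723 in Pdpn KO, against 2606 and 2396 in WT, without overlap (0.15 ± 0.11, SE). Gclm read 3917 and 4120.0 in Pdpn KO, between the WT values of 4410.5 and 3666 (0.00 ± 0.13). The subunits thus differed in whether the genotypes overlapped, and the difference between them was not tested. Me1, the cytosolic malic enzyme that makes NADPH, read 3753 and 3145 in Pdpn KO and 3851 and 3597 in WT. A second, dimmer Me1 probe set read 1878 and 1350.1 in Pdpn KO and 1565 and 1629 in WT, with the Pdpn KO arrays on either side of WT.

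G6pdx, the X-linked enzyme that opens the pentose phosphate route to NADPH, is not named in the platform annotation, and its probe set was found through the deposited description. It read 5076 and 4700.3 in Pdpn KO and 4690.5 and 4323 in WT. With all probe sets tested, named or not, limma gave it a log2 fold change of 0.12 ± 0.12 (SE) and an adjusted p of 1.00. The array with the female pattern was not the highest of the 4.

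The glutathione transferases held the largest difference of the list. Their median log2 fold change was 0.22 over 9 measured members, and 7 had a higher mean in Pdpn KO. Gsta4, an alpha-class transferase that conjugates 4-hydroxynonenal, a breakdown product of oxidised lipids, read 1035 and 1637 in Pdpn KO, against 649 and 699.6 in WT. Both Pdpn KO arrays were above both WT arrays, by more in replicate 2. The geometric mean was 1.93-fold higher, the log2 fold change 0.95 ± 0.22 (SE, n = 2 per genotype), with a 95% interval from 0.43 to 1.47, and the gene did not pass (limma unadjusted p = 0.00404, adjusted p = 1.00). An absolute log2 fold change of 0.5 or more was seen for 1.03% of all genes and for 2 members, Gsta4 and Sod3. Without Pdpn KO replicate 2, when all arrays had the male pattern, the log2 fold change was 0.62. Without Pdpn KO replicate 1 it was 1.28, where the only Pdpn KO array had the female pattern and both WT arrays the male pattern. Genotype and that pattern cannot be told apart there. In such a fit the lone Pdpn KO array is assumed to vary as the WT arrays do.

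Gsta3, another alpha-class transferase, had values near the low end of the array range and in the other direction, 82 and 90.5 in Pdpn KO against 99.9 and 100.2 in WT (-0.22 ± 0.12, SE, n = 2 per genotype). These did not overlap, and dim probe sets are compressed towards a floor by RMA.

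The mu-class genes Gstm1, Gstm2 and Gstm5 lie together on chromosome 3 and are close copies, so a probe set can read its neighbours too. Gstm1 read 1621 and 1717 in Pdpn KO, against 1415 and 1322 in WT, without overlap. The difference on the log2 scale was 0.29 ± 0.11 (SE, n = 2 per genotype), with a 95% interval from 0.01 to 0.56 (limma unadjusted p = 0.0427, adjusted p = 1.00), and it was 0.25 without Pdpn KO replicate 2. Gstm2 read 1066 and 1133 in Pdpn KO, within the WT values of 949.7 and 1179. Gstm5 read 1590.1 and 1186 in Pdpn KO and 1302 and 1070.2 in WT, where Pdpn KO replicate 1 was above the other 3 arrays.

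Among the remaining transferases replicate 1 of Pdpn KO was the highest array for 3 genes. Gstt1, a theta-class enzyme, read 182 and 146 in Pdpn KO and 123 and 147 in WT. Mgst1, a microsomal transferase with peroxidase activity, read 721 and 558 in Pdpn KO and 593 and 466 in WT. Its WT replicate 1 was above Pdpn KO replicate 2, so the genotypes overlapped.

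Mgst3, a microsomal transferase with peroxidase activity that can also conjugate leukotrienes, read 938 and 469.97 in Pdpn KO, against 886 and 492 in WT. Replicates 1 of both genotypes were near each other and well above replicates 2, and the genotypes differed by 0.01 ± 0.38 on the log2 scale (SE, n = 2 per genotype). Cd68, a lysosomal protein abundant in macrophages, had the same order, 672 and 394 in Pdpn KO and 599.6 and 377 in WT. Ptprc, which encodes CD45, read 87 and 95 in Pdpn KO and 90.0 and 81 in WT, and Adgre1, the F4/80 antigen, 60.2 and 73 in Pdpn KO and 68 and 68 in WT, so neither had that order. Gsto1, an omega-class transferase, read 6890.5 and 6125 in Pdpn KO and 7697 and 6378 in WT, with replicate 1 the higher in both genotypes.

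**Figure D3:**
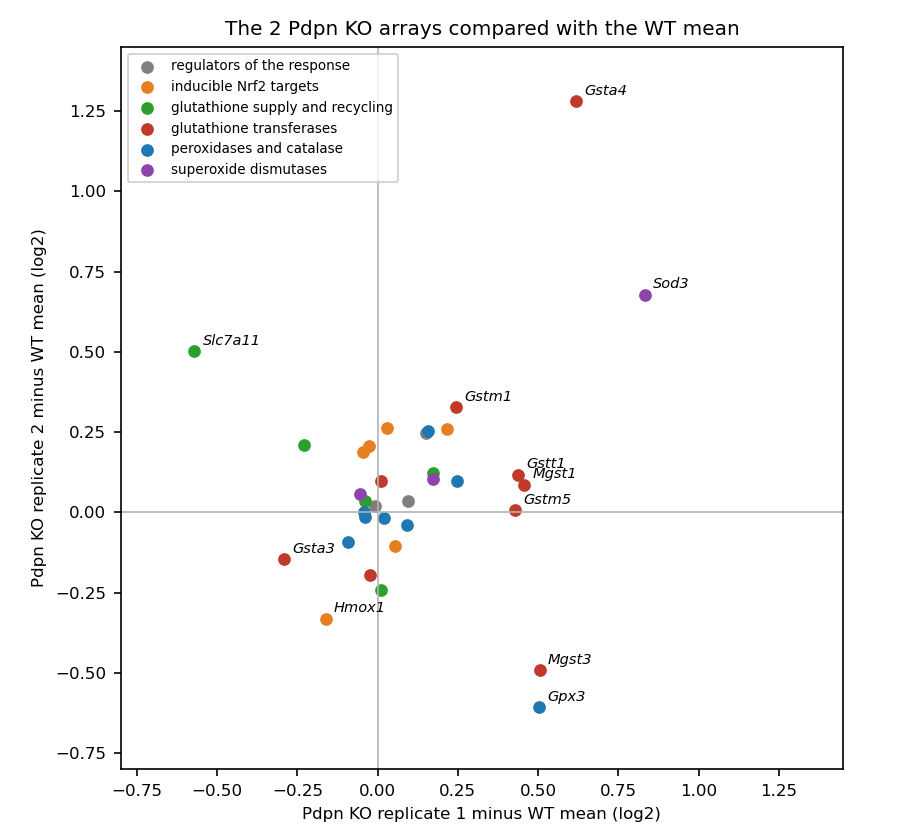
Each of the 34 members in Pdpn KO replicate 1 (x axis) and Pdpn KO replicate 2 (y axis), both as log2 RMA value minus the mean of the 2 WT arrays, coloured by role. Gsta4 and Sod3 lie far from 0 in both arrays, whereas Slc7a11, Gpx3 and Mgst3 lie on opposite sides of 0 in the 2 arrays; both axes share the WT arrays.

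The Pdpn KO arrays differed from each other over the transferases. The median of the 9 measured members was 0.43 above the WT mean in Pdpn KO replicate 1 and 0.09 above it in Pdpn KO replicate 2, on the log2 scale, while WT replicates 1 and 2 were at 0.05 and -0.05. For the 6 inducible targets the order was the opposite, with 0.00 in Pdpn KO replicate 1 and 0.20 in Pdpn KO replicate 2, against 0.04 and -0.04 in WT. The difference between these groups of genes was not tested.

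The glutathione peroxidases reduce peroxides at the cost of glutathione, and their members had no common direction. Gpx1, the cytosolic form, read 7113 and 6497 in Pdpn KO and 7007 and 6357 in WT. Gpx4, which reduces lipid peroxides in membranes and guards against ferroptosis, read 4277 and 3855 in Pdpn KO, against 3629 and 3576 in WT, without overlap (0.17 ± 0.12, SE, n = 2 per genotype). Its second, dimmer probe set read 2183 and 2081 in Pdpn KO and 2018 and 2034 in WT, with a log2 fold change of 0.07. Gpx8, a family member of the endoplasmic reticulum, read 7863 and 7663 in Pdpn KO, within the WT values of 7453 and 8067.

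Gpx3, the secreted form, read 2062 and 955 in Pdpn KO, against 1332 and 1590.1 in WT. The Pdpn KO arrays lay on either side of the WT arrays, 1.11 apart on the log2 scale, and the log2 fold change of -0.05 ± 0.34 (SE, n = 2 per genotype) had a 95% interval from -0.87 to 0.76. It was 0.50 with Pdpn KO replicate 2 left out and -0.61 with the other Pdpn KO array left out.

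Peroxiredoxins reduce peroxides with electrons from thioredoxin. Prdx1 read 7823 and 7963 in Pdpn KO and 8019 and 8065 in WT, a log2 fold change of -0.03 ± 0.11 (SE, n = 2 per genotype) whose 95% interval ran from -0.29 to 0.23. Its second, dimmer probe set read 5940.0 and 6302 in Pdpn KO, on either side of the WT values of 6097 and 6146. Txn1, thioredoxin itself, read 16142 and 16641 in Pdpn KO and 16579 and 16644 in WT. Both genes lie on chromosome 4, as Pdpn does, Prdx1 in band D1, Txn1 in band B3 and Pdpn in band E1.

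Prdx3, the mitochondrial peroxiredoxin, read 2320.0 and 2479 in Pdpn KO, against 2146 and 2019 in WT, without overlap (0.20 ± 0.11, SE, n = 2 per genotype). Prdx6, which uses glutathione in place of thioredoxin, is not named in the platform annotation. The probe set that the deposited description gives to it read 4943 and 4812 in Pdpn KO and 5294 and 4887 in WT. Prdx5 has no value here, because the descriptions of both of its probe sets also name Trmt112. Cat, catalase of the peroxisome, read 5037 and 5037 in Pdpn KO, below the WT values of 5327 and 5419 (-0.09 ± 0.11).

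The superoxide dismutases turn superoxide into hydrogen peroxide, and the extracellular form was the second largest difference of the list. Sod3, which binds heparan sulfate at the cell surface and in the matrix, read 934 and 839 in Pdpn KO, against 391 and 702 in WT. Both Pdpn KO arrays were above both WT arrays, and the WT arrays were farther from each other than the Pdpn KO arrays were. The geometric mean was 1.69-fold higher, the log2 fold change 0.76 ± 0.26 (SE, n = 2 per genotype), with a 95% interval from 0.12 to 1.39, and the gene did not pass (limma unadjusted p = 0.0268, adjusted p = 1.00). Without Pdpn KO replicate 2 it was 0.83. Without WT replicate 1 it was 0.33, and without WT replicate 2 it was 1.18, so its size rested on which WT array was used.

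The intracellular forms were closer. Sod1, the cytosolic copper and zinc enzyme, read 4587 and 4955 in Pdpn KO, on either side of the WT values of 4725 and 4798. Sod2, the mitochondrial manganese enzyme, read 2624 and 2503 in Pdpn KO, against 2367 and 2293 in WT, without overlap (0.14 ± 0.11, SE, n = 2 per genotype).

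**Figure D4:**
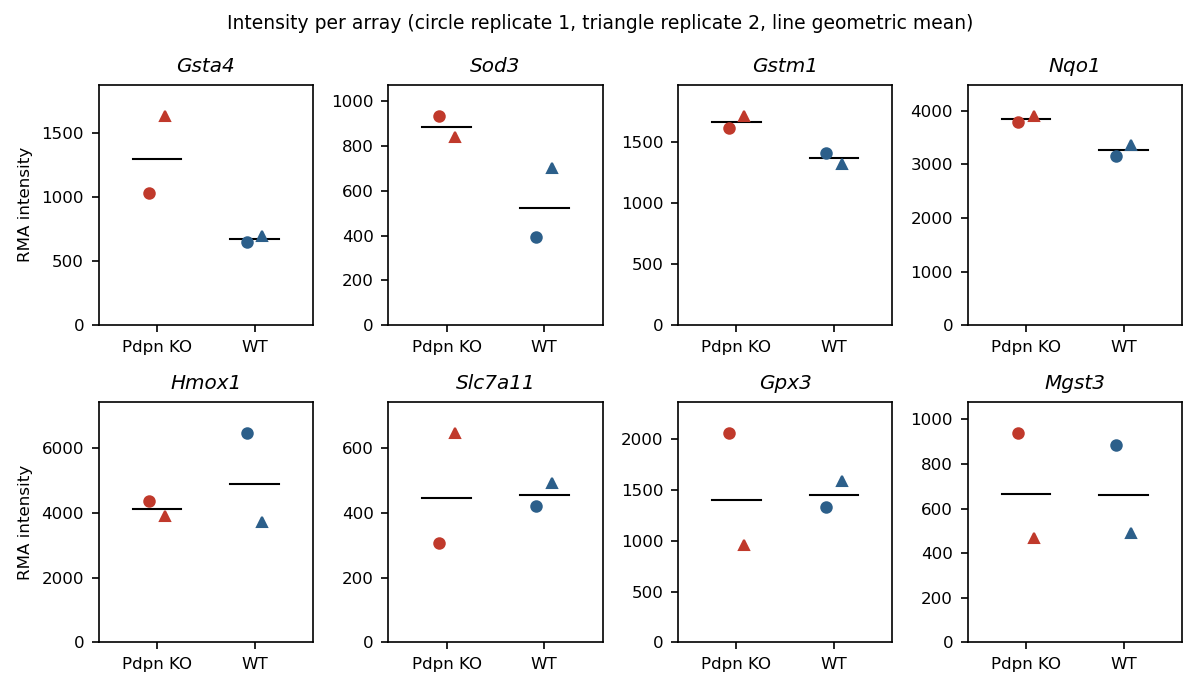
RMA intensity of 8 members in each array (y axis from 0), Pdpn KO left and WT right; circles are replicate 1, triangles replicate 2 and lines geometric means. Gsta4, Sod3, Gstm1 and Nqo1 have both Pdpn KO values above both WT values. Slc7a11, Gpx3 and Mgst3 differ more between the arrays of each genotype than between genotypes. On the log2 scale Hmox1 and Sod3 do so in WT alone.

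Genes of the wider pathway were read in the same way. Of 125 further genes measured from 8 lists, 0 passed in limma, beside 0.0101% of all genes. At an unadjusted p under 0.05 in limma, 1 had a higher mean in Pdpn KO, beside 1.5% of all genes. A lower mean at that p was seen for 0 of them, beside 0.511% of all genes. Their median log2 fold change was 0.04, and 74 of them (59.2%) had the higher mean in Pdpn KO, beside 51.7% of all genes. The Pdpn KO arrays were the higher pair for 23 of them (18.4%), beside 14.6% of all genes, and the lower pair for 10 (8.0%), beside 9.74%. The genes named next are among the 3 with the smallest p of their list.

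Glrx, glutaredoxin, which removes glutathione from proteins, read 1761 and 1710.3 in Pdpn KO, against 1274 and 1491 in WT, and was the gene at an unadjusted p under 0.05 (0.33 ± 0.13, SE, n = 2 per genotype; limma unadjusted p = 0.0359, adjusted p = 1.00). Its list of 27 thioredoxin, glutaredoxin and other peroxidase genes had a median of 0.07, and 20 of them had a higher mean in Pdpn KO. Txndc12, a thioredoxin-like protein of the endoplasmic reticulum, read 2341 and 2239.6 in Pdpn KO and 1862 and 2071 in WT.

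Of 11 other glutathione transferases measured, 8 had a higher mean in Pdpn KO, with a median of 0.13. Gstm6, which like Gsta3 had values near the low end of the array range, read 86 and 72 in Pdpn KO and 68 and 63 in WT. Gstm3 read 327 and 363 in Pdpn KO and 295 and 299 in WT. Both genes were without overlap. These are close copies of the mu-class members above and share their chromosome, so they are not separate evidence. Like the 9 transferases of the list, the 11 were higher in Pdpn KO replicate 1, where the median was 0.30 above the WT mean on the log2 scale, than in Pdpn KO replicate 2, where it was -0.06.

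The 16 measured genes of glutathione synthesis, breakdown and transport had a median of 0.08, and 12 had a higher mean in Pdpn KO. Gss, glutathione synthetase, which adds the last residue, read 1670 and 1559 in Pdpn KO, against 1400.1 and 1392 in WT (0.21 ± 0.11, SE, n = 2 per genotype). Slc1a1, a transporter of glutamate and cysteine, read 145 and 145 in Pdpn KO and 100.4 and 135 in WT.

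Among 18 other Nrf2 targets the median was 0.04, with 10 means higher and 8 lower. Cbr1, a carbonyl reductase, read 809 and 678 in Pdpn KO, against 628 and 593 in WT, while Abcc1, an exporter of glutathione conjugates, read 3810.1 and 3910.1 in Pdpn KO, below the WT values of 4604 and 4229. The 12 regulators and cofactors of Nrf2 had a median of -0.01, with 5 means higher and 7 lower. Btrc, part of a second ligase that degrades Nrf2, read 1862 and 1516 in Pdpn KO and 1426 and 1505 in WT.

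For 15 genes of NADPH supply the median was -0.01, with 7 means higher in Pdpn KO and 8 lower. Idh1, the cytosolic isocitrate dehydrogenase, read 4836 and 3525 in Pdpn KO and 3316 and 3344 in WT, so that Pdpn KO replicate 1 set most of its log2 fold change of 0.31 ± 0.17 (SE, n = 2 per genotype). The 13 sources of superoxide and peroxide had a median of 0.00, with 6 means higher and 7 lower. Nox4, the NADPH oxidase of fibroblasts, read 676 and 636 in Pdpn KO and 793 and 674 in WT. The 15 genes of haem and iron handling had a median of 0.00, with 8 means higher and 7 lower. Steap3, a ferrireductase, read 1246 and 1178 in Pdpn KO, against 1073 and 975 in WT.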

How the data were processed

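RNA of 4 cultures, 2 per genotype, was hybridised to 1-colour arrays. The authors deposited an RMA intensity for every probe set, in linear units; RMA is named per the submitters' processing notes, without version or settings. RMA makes the distributions of the arrays nearly equal and compresses low values, so changes of dim genes are understated. Precision is limited by the number of arrays. Values were put on the log2 scale without pseudocount or filter. Of 24679 probe sets, 21354 had 1 gene symbol, 1275 several and 2050 none here. The brightest of several was kept, which gave 19751 genes.

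Pdpn KO was compared with WT in limma 3.58.1 (R 4.3.3; lmFit and eBayes, two-sided) with Benjamini-Hochberg adjustment across the 19751 genes and a threshold of 0.05, checked on simulated data. The labels call the samples biological replicates, and the Pdpn KO arrays, which differ in Xist and Y-linked genes, are not repeats of 1 RNA sample. How many embryos or litters stand behind a culture is not stated, so the p-values cover the spread among these 4 cultures. The members and lists were chosen with earlier results of these data known. All 34 members are described, with up to 3 genes of each further list by smallest p. Alternatives were a replicate block, each array left out, other normalisations, filters on dim genes, other probe set rules, another prior and the second deposited table. Figures were drawn with matplotlib 3.10.9.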

Additional observations from a re-analysis of the deposited data

How the results depend on the processing

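With 2 arrays per genotype, only large differences could pass. No member passed in any alternative that kept all 4 arrays, and Gsta4 had an unadjusted p under 0.05 in limma in all of them. Over all genes, 2 passed with the values as reported, 9 with an intensity-dependent robust prior, 1 without the dimmer 50% of genes and 1 with all probe sets tested, a choice made after seeing the data. With the replicate block 34 genes passed (0.172%) and no member did, the lowest adjusted p being 0.0900, for Gsta4. The labels do not say that arrays with the same number share anything, though their deviations from the group means correlated at 0.581. The first principal component held 58.8% of the variance, and which arrays it separates was not tested. Log2 values over all genes correlated at 0.9961 in each same-numbered pair. Those of the Pdpn KO arrays correlated at 0.9930 and those of the WT arrays at 0.9943. With each array left out in turn, 5 to 100 genes and 0 to 1 members passed, and the member median ran from 0.0420 to 0.1074.

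The member median was 0.0185 with quantile normalisation and 0.0103 with median centring. Quantile normalisation turned the sign of Mgst3 (-0.0360), Gpx8 (-0.0189), Sod1 (-0.0271), Txn1 (0.0473) and Sqstm1 (-0.0187), and median centring that of Mgst3 (-0.0231), Gpx1 (-0.0036), Gpx8 (-0.0284), Sod1 (-0.0282) and Sqstm1 (-0.0240). Leaving out 1 array turned the sign of 17 members in at least 1 fit. Their log2 fold changes ran from -0.6453 to 0.1519 for Hmox1, -0.1348 to 0.1318 for Gclm, -0.0281 to 0.2072 for Txnrd1, -0.0463 to 0.1875 for Srxn1, -0.5707 to 0.5014 for Slc7a11 and -0.1017 to 0.2104 for Gstm2. They ran from -0.2445 to 0.0265 for Gsto1, -0.4913 to 0.5053 for Mgst3, -0.2282 to 0.2113 for Gsr, -0.0438 to 0.0967 for Gpx1, -0.6072 to 0.5033 for Gpx3 and -0.0554 to 0.0587 for Gpx8. They ran from -0.0537 to 0.0575 for Sod1, -0.0414 to 0.0025 for Txn1, -0.0451 to 0.0572 for Sqstm1, -0.1048 to 0.0538 for Fth1 and -0.2427 to 0.0122 for Me1. The cause was not tested. The other 17 members kept their sign in all alternatives run.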

Other observations

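Nnt, the mitochondrial transhydrogenase that makes NADPH, is known to carry a deletion of several exons in C57BL/6J mice. Its probe set read 1861 and 1958 in Pdpn KO and 2260.0 and 2096 in WT, a log2 fold change of -0.19 ± 0.11 (SE, n = 2 per genotype; limma adjusted p = 1.00). Which exons the probe set covers is not given in the sources used here.

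Col3a1, a fibrillar collagen of fibroblasts, read 931 and 1538 in Pdpn KO and 724 and 1491 in WT, with replicate 2 the higher in both genotypes, the opposite order to Mgst3.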
